A study of Mus musculus with 6 samples.

Results

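A group of 47 genes that stood higher in Cop1 knockout microglia than in untreated wild-type microglia, and that moved little in wild-type microglia given lipopolysaccharide (LPS), was taken from 36528 gene identifiers with read counts. The genes were selected on measured values, the Cop1 KO and LPS ratios of the same libraries that are described here. Counts were scaled to each library's total (written CPM) and averaged within a group, and L was the log2 ratio of a group's mean CPM plus 1 to the untreated wild-type mean plus 1. A gene was kept when at least 1 group averaged 3 CPM, its L in Cop1 knockout was at least 0.8, and its L with LPS lay between -0.7 and 0.7. Genes whose symbols begin with Trib, Col, Hp or H2- and identifiers without a symbol were left out. Since both contrasts chose the genes, their values in the 3 groups are a description and carry no test.

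The libraries hold polyadenylated RNA from cultured mouse microglia, which are macrophages that reside in the brain. There were 2 libraries of untreated Cop1 knockout microglia (Cop1 KO, whose group label names loxP), 2 of wild-type microglia treated with LPS, a bacterial outer-membrane component sensed by Toll-like receptor 4, and 2 of untreated wild-type microglia. The series asks how the loss of COP1 and LPS treatment compare in their effect on microglial RNA. The labels give no LPS dose or duration, no Cre driver, no deleted exon and no animal age, and they do not say whether the 2 libraries of a group came from separate cultures or animals, so a p-value here reflects the spread between libraries alone, and that spread may be technical.

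COP1 is an E3 ubiquitin ligase that, with Tribbles pseudokinases as adaptors, marks transcription factors such as C/EBP beta for degradation, so its loss can raise a factor's protein without a matching rise of its mRNA. LPS acts through Toll-like receptor 4 on NF-kB and interferon signalling and changes a large part of the macrophage transcriptome. Extracellular matrix genes, many of which are among the 47, are made mainly by fibroblasts and perivascular cells in the brain, while sialoadhesin, Fc receptors and C-type lectins are surface proteins of macrophages.

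Library totals lay between 20568144 and 22553708 counts. Cop1 itself measured 8.40 and 9.61 CPM in the Cop1 KO libraries, 18.8 and 21.9 CPM in the LPS libraries and 15.2 and 13.7 CPM in the untreated wild-type libraries. The edgeR quasi-likelihood fit to 15585 genes gave a log2 change of -0.49 (SE 0.11, adjusted p = 0.000158) for Cop1 KO over untreated, a partial fall over the whole gene model. Cebpb mRNA, from the gene for C/EBP beta, measured 147 and 131 CPM in Cop1 KO, 268 and 251 CPM with LPS and 111 and 112 CPM in untreated cells. All 18 markers that define microglia and macrophages were found, and their summed level was 23492 and 23248 CPM in Cop1 KO, 11177 and 10939 CPM with LPS and 17947 and 17878 CPM in untreated cells.

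Promoter windows are shown for the members with the largest L in Cop1 KO that had a window in the RefSeq table, 3 from the matrix group and 3 from the myeloid receptor group, so that the letters upstream of the start sites can be read beside the levels. Each window runs from 250 bases before to 50 bases after the annotated start, 5′ to 3′ on the gene's strand, in build GRCm38.p6. Capitals mark matches on either strand to the searched letters for PU.1 (GAGGAAG), NF-kB (GGGA, any 4 bases, CC), TEAD (GGAATG) or the interferon-stimulated response element (GAAA, any 2 bases, GAAA), none of which overlap each other in these windows. The windows lie at chr12:84876442-84876741 on the minus strand for Ltbp2 and, on the plus strand, at chrX:73483351-73483650 for Bgn, chr11:5861616-5861915 for Aebp1, chr17:48232489-48232788 for Trem1, chr4:126024409-126024708 for Csf3r and chr6:123261857-123262156 for Clec4d.
Ltbp2: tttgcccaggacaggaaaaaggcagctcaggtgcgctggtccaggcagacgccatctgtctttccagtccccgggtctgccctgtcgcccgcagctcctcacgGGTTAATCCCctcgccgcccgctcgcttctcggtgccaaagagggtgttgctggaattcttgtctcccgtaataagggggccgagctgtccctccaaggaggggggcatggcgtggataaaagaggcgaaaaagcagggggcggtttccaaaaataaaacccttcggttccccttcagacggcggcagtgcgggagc
Bgn: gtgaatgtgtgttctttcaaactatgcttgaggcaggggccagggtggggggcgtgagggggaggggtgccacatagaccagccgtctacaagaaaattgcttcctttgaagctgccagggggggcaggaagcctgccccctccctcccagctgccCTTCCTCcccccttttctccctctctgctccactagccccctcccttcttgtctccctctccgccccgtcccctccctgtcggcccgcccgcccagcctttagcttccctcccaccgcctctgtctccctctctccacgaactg
Aebp1: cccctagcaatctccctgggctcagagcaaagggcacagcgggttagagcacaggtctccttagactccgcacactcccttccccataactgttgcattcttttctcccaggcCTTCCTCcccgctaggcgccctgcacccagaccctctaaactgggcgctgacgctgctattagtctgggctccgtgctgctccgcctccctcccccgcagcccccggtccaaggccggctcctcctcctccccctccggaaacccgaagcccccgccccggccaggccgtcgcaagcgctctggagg
Trem1: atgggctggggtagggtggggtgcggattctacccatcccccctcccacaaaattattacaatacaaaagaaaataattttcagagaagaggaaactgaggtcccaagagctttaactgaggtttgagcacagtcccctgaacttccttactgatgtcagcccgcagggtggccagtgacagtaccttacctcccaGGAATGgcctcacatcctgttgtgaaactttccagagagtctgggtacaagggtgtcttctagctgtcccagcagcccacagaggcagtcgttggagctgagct
Csf3r: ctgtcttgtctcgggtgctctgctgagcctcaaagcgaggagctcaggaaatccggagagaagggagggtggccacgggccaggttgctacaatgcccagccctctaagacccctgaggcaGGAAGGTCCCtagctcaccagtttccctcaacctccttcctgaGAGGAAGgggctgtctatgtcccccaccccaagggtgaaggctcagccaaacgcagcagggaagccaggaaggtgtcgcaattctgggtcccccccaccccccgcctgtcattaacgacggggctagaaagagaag
Clec4d: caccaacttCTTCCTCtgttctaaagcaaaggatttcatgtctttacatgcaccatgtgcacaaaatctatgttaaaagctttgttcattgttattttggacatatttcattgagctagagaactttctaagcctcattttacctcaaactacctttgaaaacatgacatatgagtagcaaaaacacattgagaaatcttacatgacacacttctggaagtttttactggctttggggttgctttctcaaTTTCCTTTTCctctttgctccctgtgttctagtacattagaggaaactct

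Of the 47 members, 28 had a window in the table, 33 windows in all, since some have more than 1 start. The PU.1 letters were present in 27.3% of the members' windows, against 13.6% of all 32841 windows. PU.1 is an ETS factor that drives macrophage genes, and the letters were found in 4 of 6 myeloid receptor windows (Cd72, Csf3r, Clec4d and Pirb) and in 2 of 8 matrix windows (Aebp1 and Bgn). F730311O21Rik is counted more than once, through overlapping windows. The response element for interferon was in 9.09% of member windows (Clec4d, Fbn1 and Ifitm2) and 3.44% of all windows. NF-kB letters were in 27.3% and 20.7%, and TEAD letters in 18.2% and 14.7%, where 4 of the 6 member windows with TEAD letters are overlapping windows of Gm34620 and the others belong to Chst1 and Trem1. The C/EBP letters TTGCNNAA were in 6.06% of member windows (BC051226 and Chst1) and 10.8% of all, TATAAA was in 12.1% and 13.6%, and the AP-1 letters TGANTCA and the CArG box of serum response factor were in 0% of member windows, against 7.81% and 1.63% of all windows. With 33 windows, 1 window is a large step in such a share, and a match of letters is not a binding site.

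Selection narrowed the genes in steps. Of 36528 identifiers, 12476 averaged at least 3 CPM in a group, and 277 of these (2.22%) had L of at least 0.8 in Cop1 KO. Of the 277, 188 stood above the band with LPS, 30 stood below it and 59 lay within it (21.3%), where 39.7% of all 12476 genes lay. Leaving out 9 genes by symbol and 3 identifiers without a symbol gave the 47 members, of which 40 are protein coding, spread over 16 chromosomes. The 9 genes left out by symbol included Hp, Trib1 and the collagens Col1a1, Col3a1, Col5a1, Col6a2 and Col24a1. Over the members, the median L was 1.04 in Cop1 KO (0.82 to 2.42) and -0.14 with LPS (-0.67 to 0.65). Over all 12476 genes the medians were -0.16 and -0.67, so the median gene itself lay close to the lower limit of the LPS band on this scale.

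All 47 members had both Cop1 KO libraries above both untreated libraries, as did 23.2% of the 12476 genes. On library-size CPM all 47 also had both Cop1 KO libraries above both LPS libraries, as did 63% of genes. The rule places each member's Cop1 KO mean above both its untreated and its LPS mean, so nothing is read from either count. With LPS, 20 members had both libraries below both untreated ones (76.4% of all genes did), 15 had both above (19.7% of all genes) and 12 overlapped. Mean level in Cop1 KO was under 10 CPM for 22 members, where counting error is larger, and at least 100 CPM for 16 members. Across all genes, edgeR called 28.1% higher and 30.3% lower in Cop1 KO than in untreated cells, and 30.2% higher and 43.4% lower with LPS. These shares are the background for every count of called list genes given below.

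The scaling of libraries bears on the LPS limits of the rule. TMM normalisation, which centres the bulk of the genes, moved the LPS to untreated ratio up by 0.56 and the Cop1 KO to untreated ratio up by 0.19 on the log2 scale. Under TMM, 33 of the 47 members stayed within the LPS band and 14 stood above it. All 47 kept L of at least 0.8 in Cop1 KO, and none fell below the band. Neither of these last results is a test, since TMM moved the ratios up and the members had already met those limits. The 14 were Trem1, Ifitm1, Chst1, Cd72, Fcgr2b, Xylt2, Lpcat2, Pirb, BC051226, Ifitm2, Fbn1, Sdc3, LOC100862431 and Igfbp7. The matrix group kept 17 of 19 members within the band and the myeloid receptors 3 of 7. These counts depend on level, since adding 1 CPM draws L of low genes towards 0. Median untreated levels were 3.17 CPM for the matrix group and 348 CPM for the receptors. In the edgeR fit, the median LPS log2 changes were 0.18 and 0.83. Thbs2 and Mgp, both inside the band, had fitted LPS changes of 1.06 (SE 0.27) and 0.84 (SE 0.47). Scaling likewise sets how many of all genes count as higher or lower. With library totals alone, 2321 genes were higher and 7195 lower in Cop1 KO, and 2679 were higher and 10766 lower with LPS. With TMM these were 4374 and 4727 for Cop1 KO and 4714 and 6767 for LPS, and with median-of-ratios factors they were 5490 and 3913 for Cop1 KO and 5579 and 5667 for LPS.

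**Figure D1:**
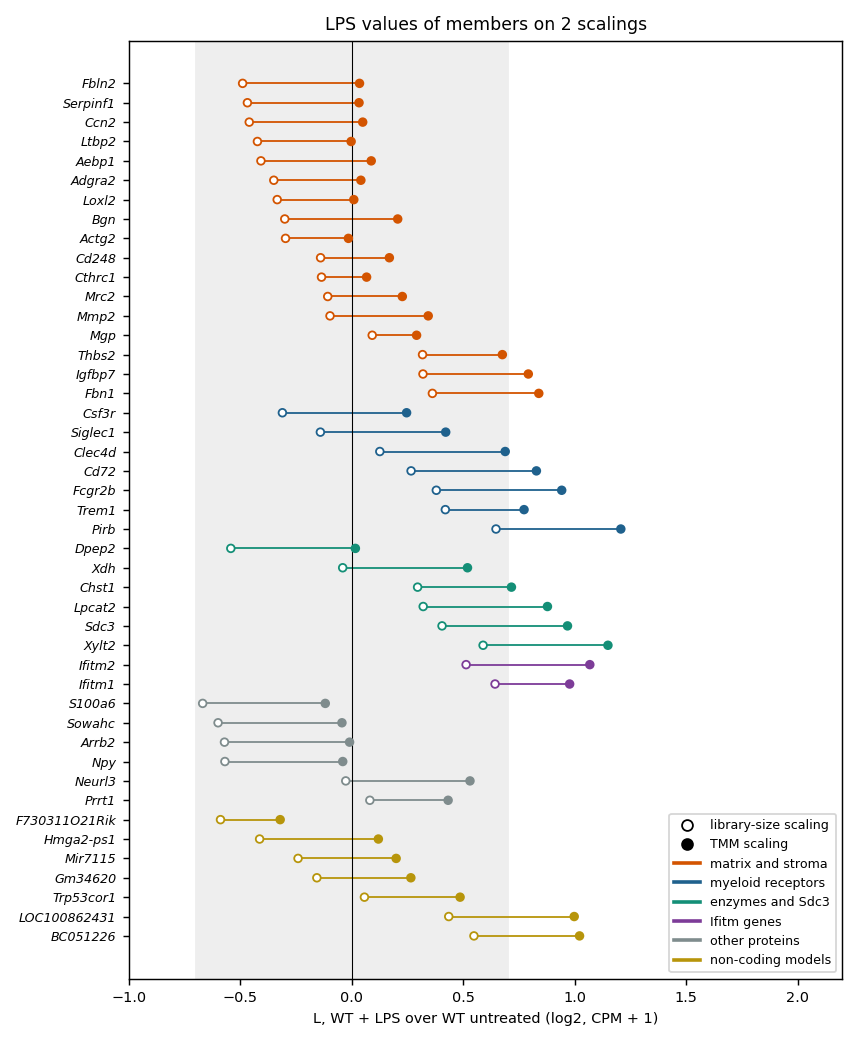
L with LPS for 45 of the members, on the log2 scale of CPM plus 1, with library-size scaling (open circles) and TMM scaling (filled circles), coloured by role. The shaded band runs from -0.7 to 0.7, and 14 filled circles lie to its right while every open circle lies inside it.

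**Figure D2:**
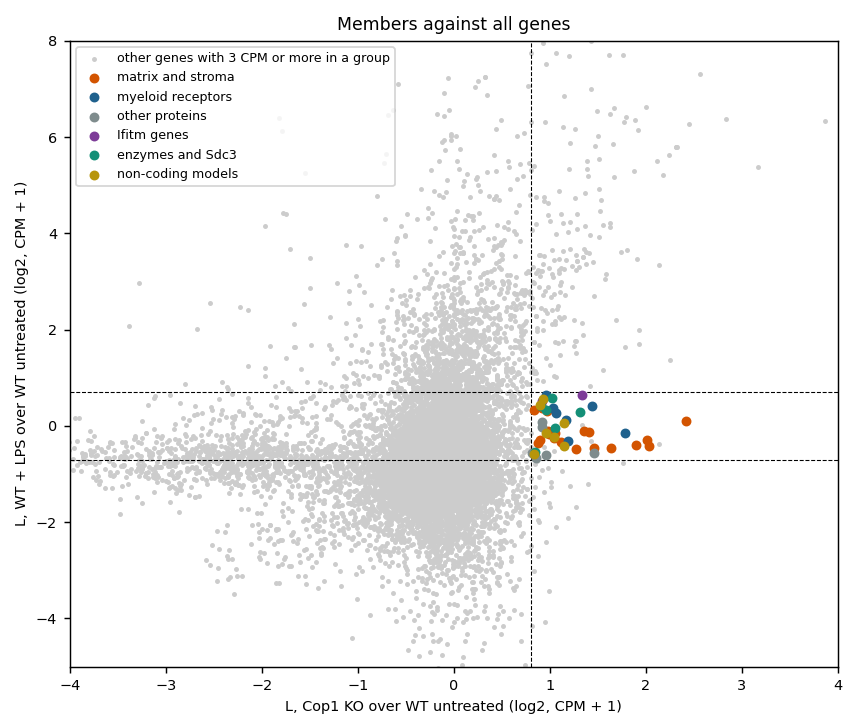
L with LPS against L in Cop1 KO, both over untreated wild type, for genes averaging at least 3 CPM in a group (grey) and the members (coloured by role), on library-size scaling. Dashed lines mark the limits of 0.8, -0.7 and 0.7, grey points inside them are the genes left out by symbol or without one, and 58 genes lie outside the plotted range.

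The first and largest group by role, assigned after the members were seen, comprised 19 genes of the extracellular matrix and of stromal cells. Their median L was 1.11 in Cop1 KO and -0.25 with LPS, where 15 of 19 lay below 0 and 4 above; under TMM the LPS median was 0.09. Summed over the 19 genes the level was 277 and 273 CPM in Cop1 KO, 71.8 and 69.3 CPM with LPS and 85.2 and 88.9 CPM in untreated cells. On the per-length scale, the authors' normalised RPKM, their median level was 1.83 in Cop1 KO, 0.593 with LPS and 0.456 in untreated cells, so as a group they were low in all 3. For comparison, the myeloid receptors had medians of 157, 59.5 and 36.2 normalised RPKM in Cop1 KO, LPS and untreated cells. In bulk samples, fewer cells of a type and less RNA per cell cannot be told apart.

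Mgp (Entrez 17313, chromosome 6, 136872435 to 136875823), for matrix Gla protein, an inhibitor of calcification, showed the largest L. It had 8.16 and 5.70 CPM in Cop1 KO, 0.765 and 0.389 CPM with LPS and 0.473 and 0.488 CPM in untreated cells. These are 174 and 124 reads, 17 and 8 reads, and 10 and 11 reads, so the Cop1 KO level is 14.4 times the untreated mean but rests on few reads in the other groups. The fitted log2 change was 4.02 (SE 0.28) for Cop1 KO over untreated, and 0.84 (SE 0.47) for LPS over untreated, where the LPS libraries straddled the untreated ones.

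Ltbp2, a microfibril-associated member of the latent TGF-beta binding protein family, had 17.6 and 17.9 CPM in Cop1 KO, 2.79 and 2.04 CPM with LPS and 3.97 and 3.19 CPM in untreated cells. Bgn, for the small leucine-rich proteoglycan biglycan, had 41.8 and 44.1 CPM in Cop1 KO, 6.80 and 8.95 CPM with LPS and 9.88 and 9.98 CPM in untreated cells. Aebp1, which encodes a collagen-binding matrix protein, had 34.6 and 33.8 CPM in Cop1 KO, 7.02 and 5.20 CPM with LPS and 8.18 and 8.69 CPM in untreated cells. The Cop1 KO libraries of these 3 genes stood 4.97, 4.33 and 4.05 times above the untreated means, and both LPS libraries lay below both untreated ones. Under TMM their LPS log2 changes were 0.01 (SE 0.20), 0.22 (SE 0.12) and 0.10 (SE 0.13).

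Ccn2, encoding the matricellular protein also called connective tissue growth factor, had 35.4 and 38.1 CPM in Cop1 KO, 6.93 and 8.70 CPM with LPS and 11.4 and 10.8 CPM in untreated cells. Some 23.2% of its exonic bases overlap an opposite-strand entry, and the library kit does not keep the strand. Serpinf1, for the secreted serpin called pigment epithelium-derived factor, had 28.3 and 28.1 CPM in Cop1 KO, 6.12 and 7.20 CPM with LPS and 9.17 and 10.02 CPM in untreated cells. Fbln2, for the matrix glycoprotein fibulin-2, had 40.8 and 40.0 CPM in Cop1 KO, 11.8 and 10.6 CPM with LPS and 15.2 and 17.0 CPM in untreated cells. Fold changes of Cop1 KO over untreated were 3.30 for Ccn2, 2.94 for Serpinf1 and 2.51 for Fbln2. Each LPS mean was about 0.7 of the untreated mean on library-size scaling (0.702, 0.694 and 0.694). Under TMM the LPS log2 changes of these genes were 0.05 (SE 0.12), 0.03 (SE 0.12) and 0.04 (SE 0.10).

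Cthrc1, a secreted protein made in remodelling tissue, had 3.71 and 2.99 CPM in Cop1 KO, 0.585 and 0.389 CPM with LPS and 0.425 and 0.842 CPM in untreated cells. Mrc2, the endocytic collagen receptor also called Endo180, had 5.35 and 5.61 CPM in Cop1 KO, 1.44 and 1.26 CPM with LPS and 1.61 and 1.46 CPM in untreated cells. Loxl2, a lysyl oxidase family enzyme that cross-links collagen, had 5.63 and 4.87 CPM in Cop1 KO, 1.71 and 0.875 CPM with LPS and 1.65 and 2.13 CPM in untreated cells. These 3 lay at a few CPM, and for Cthrc1 and Loxl2 the LPS and untreated libraries overlapped.

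Cd248, a stromal and pericyte surface protein called endosialin, had 3.99 and 3.59 CPM in Cop1 KO, 1.17 and 1.02 CPM with LPS and 0.756 and 1.86 CPM in untreated cells. The untreated replicates of Cd248 differ by more than its LPS replicates do, so its fold of 2.89 is among the less precise. Actg2, a smooth-muscle actin, averaged 3.16 CPM in Cop1 KO, 0.817 with LPS and 1.23 in untreated cells, and Adgra2, an adhesion receptor that acts with Wnt7 signalling, had L of 0.88 in Cop1 KO and -0.35 with LPS.

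Mmp2, the type IV collagenase gelatinase A, had 8.40 and 8.14 CPM in Cop1 KO, 4.28 and 2.48 CPM with LPS and 3.73 and 3.64 CPM in untreated cells. On this scale the LPS libraries of Mmp2 lay on both sides of the untreated ones, and under TMM its LPS log2 change was 0.45 (SE 0.20). The remaining matrix members stood above 0 with LPS. Thbs2, for thrombospondin-2, had 3.99 and 3.49 CPM in Cop1 KO, 1.89 and 2.14 CPM with LPS and 1.47 and 1.37 CPM in untreated cells. Fbn1, for the microfibril protein fibrillin-1, had 9.99 and 9.52 CPM in Cop1 KO, 6.17 and 6.47 CPM with LPS and 4.87 and 4.52 CPM in untreated cells. Igfbp7, an insulin-like growth factor binding protein, had 9.38 and 8.23 CPM in Cop1 KO, 6.57 and 5.10 CPM with LPS and 3.69 and 5.28 CPM in untreated cells. Fbn1 and Igfbp7 are the 2 matrix members that leave the band under TMM, with L of 0.84 and 0.79. Of Fbn1's exonic bases 20.1% overlap an opposite-strand entry.

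**Figure D3:**
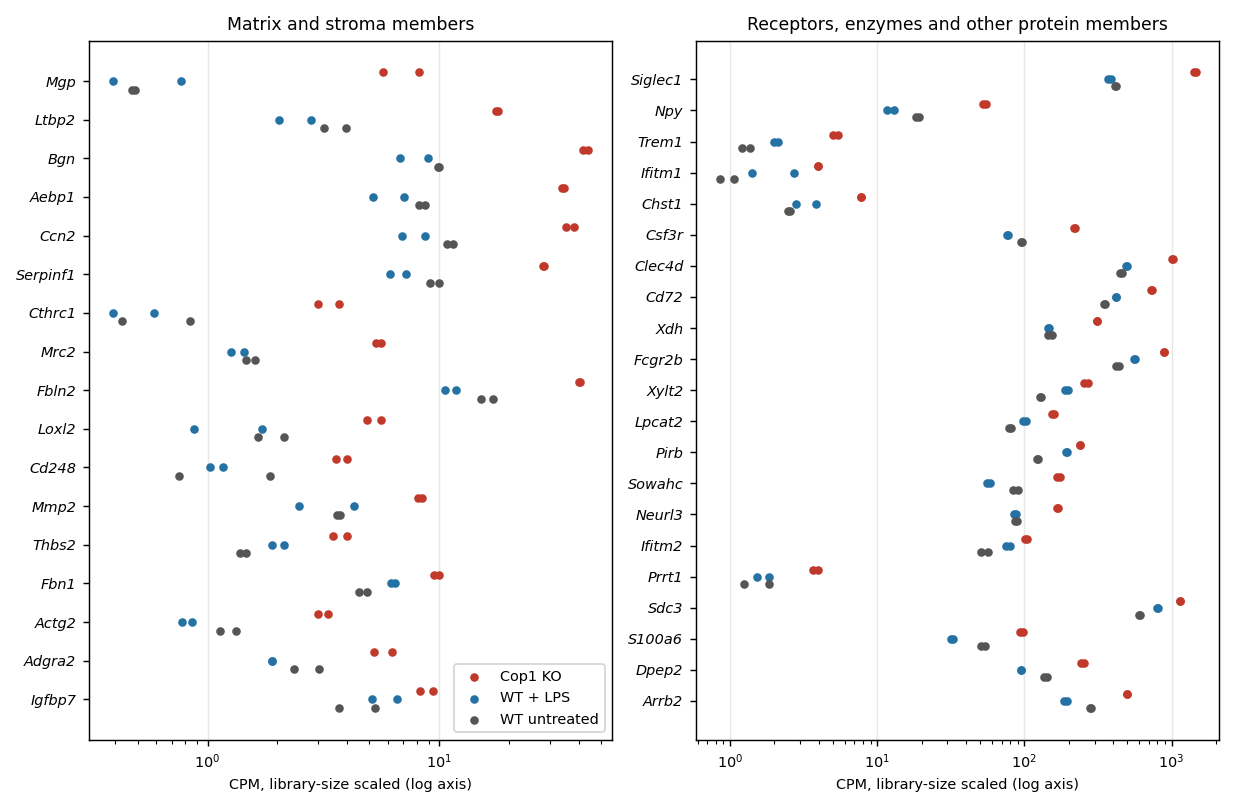
CPM on a log axis for 17 of the matrix and stroma members (left) and the 21 other protein-coding members (right), with 2 libraries each of Cop1 KO (red), LPS-treated wild type (blue) and untreated wild type (grey). The red points lie to the right of the blue and grey points in every row, an order of group means that the choice of genes fixes.

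Markers of other cell types were measured beside the matrix group, and their part in the result was not tested. The 14 fibroblast markers summed to 134 and 130 CPM in Cop1 KO, 81.2 and 81.7 CPM with LPS and 114 and 111 CPM in untreated cells. That sum includes Col1a1 and Col3a1, which met all other limits of the rule and were left out by symbol alone. Their part of it is no separate evidence. Col3a1 had 15.1 and 14.6 CPM in Cop1 KO, 5.13 and 5.54 CPM with LPS and 5.20 and 5.41 CPM in untreated cells. Of 9 that passed the low-count filter, edgeR called 4 higher and 4 lower in Cop1 KO. Col1a1 and Col3a1 are among these 9, and their rise is no separate evidence in this count either. Lum, Fbln1, Mfap5, Twist2, Dpt and Ogn were below 1 CPM in every group. Col1a1, a fibrillar collagen gene that the rule leaves out by its symbol, had 68.9 and 64.0 CPM in Cop1 KO, 22.6 and 20.8 CPM with LPS and 32.7 and 30.7 CPM in untreated cells. Pdgfra, a receptor of fibroblasts and oligodendrocyte precursors, went the other way, with 0.469 and 0.414 CPM in Cop1 KO, 10.2 and 10.1 CPM with LPS and 16.4 and 17.0 CPM in untreated cells, and its edgeR log2 change in Cop1 KO was -5.03 (SE 0.20, adjusted p = 3.36e-28). Islr, a further fibroblast marker, had a log2 change of -3.48 (SE 0.17, adjusted p = 1.48e-24). Thus the list split, with collagens and Dcn higher and Pdgfra, Islr and Thy1 lower in Cop1 KO.

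The 12 mural cell markers summed to 880 and 893 CPM in Cop1 KO, 639.7 and 646 CPM with LPS and 823 and 827 CPM in untreated cells, and Rgs5, Myh11, Abcc9, Kcnj8, Des and Vtn were below 1 CPM in every group. Of 6 tested, 4 were called higher and 2 lower in Cop1 KO. The 14 endothelial markers summed to between 185 and 203 CPM in all 6 libraries, with Cldn5 at 0 in all libraries. Of 9 tested, 4 were called higher and 2 lower in Cop1 KO (median log2 change 0.86), and 5 higher and 1 lower with LPS (median 1.13). The 12 astrocyte markers summed to 58.1 and 53.3 CPM in Cop1 KO, 708 and 712 CPM with LPS and 940.1 and 941 CPM in untreated cells, and 11 of 12 were called lower in Cop1 KO. Neuron markers summed to 7.36 and 8.41 CPM in Cop1 KO, 78.6 and 78.7 CPM with LPS and 111 and 113 CPM in untreated cells, and 10 of 11 tested were called lower in Cop1 KO.

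**Figure D4:**
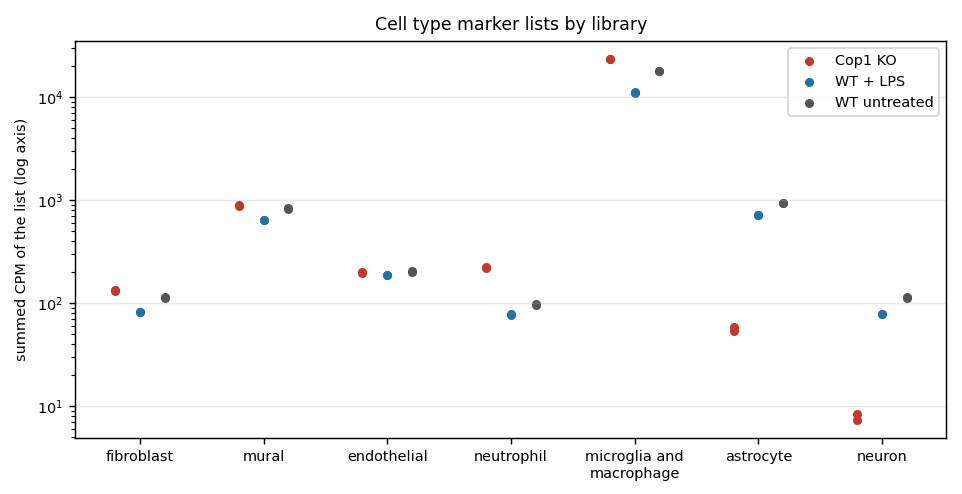
Summed CPM, on a log axis, of cell type marker lists in the 2 libraries of Cop1 KO (red), LPS-treated wild type (blue) and untreated wild type (grey). The lists drawn are fibroblast, mural, endothelial, neutrophil, microglia and macrophage, astrocyte and neuron, and other lists measured are not drawn. The astrocyte and neuron sums are far lower in Cop1 KO than in the other groups, the microglia and macrophage sum is highest in Cop1 KO, and the neutrophil sum follows Csf3r, which is on that list.

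Other matrix genes moved in both directions. From a list of 38 matrix genes other than collagens, 5 are members, and 26 further genes passed the low-count filter, of which edgeR called 11 higher and 12 lower in Cop1 KO (median log2 change -0.13) and 8 higher and 8 lower with LPS (median -0.0030). Over all genes tested the medians were -0.01 for Cop1 KO and -0.18 for LPS. Thbs1, for thrombospondin-1, rose in Cop1 KO by 0.87 (SE 0.04, adjusted p = 3.05e-24) and with LPS by 0.85 (SE 0.04, adjusted p = 9.76e-24). Fn1, for fibronectin, fell in Cop1 KO, with a log2 change of -0.49 (SE 0.03, adjusted p = 1.69e-21), and with LPS it was -0.33. Sparcl1, an astrocyte-secreted matrix protein, was at 15.4 and 14.9 CPM in Cop1 KO, 181 and 180 CPM with LPS and 279 and 284 CPM in untreated cells, a called fall in Cop1 KO of -4.02 on the log2 scale (SE 0.05).

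Proteases and their inhibitors also split. Beside the members Mmp2 and Serpinf1, 22 genes of that list were tested and 10 were called higher and 9 lower in Cop1 KO, and 9 higher and 9 lower with LPS. Adam8, a membrane metalloprotease, rose in Cop1 KO by 0.96 (SE 0.02) and fell with LPS, with a log2 change of -0.74 (SE 0.03). Mmp12, the macrophage elastase, fell in Cop1 KO, with a change of -0.81 (SE 0.02), and with LPS its change was -0.02 (SE 0.02, edgeR adjusted p = 0.411). Of 10 tested genes of the insulin-like growth factor axis other than Igfbp7, 4 were called higher and 5 lower in Cop1 KO; Igfbp4 rose by 0.66 (SE 0.04), whereas the change of Igfbp3 was -4.49 (SE 0.08).

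The next group held 7 receptors of myeloid cells, with a median L of 1.17 in Cop1 KO and 0.27 with LPS, where 2 lay below 0 and 5 above. Under TMM the LPS median was 0.77. Their Cop1 KO means ran from 5.18 CPM for Trem1 to 1441 CPM for Siglec1, and no receptor had overlapping LPS and untreated libraries. Summed over the 7, the level was 4549 and 4526 CPM in Cop1 KO, 2128 and 2116 CPM with LPS and 1860 and 1875 CPM in untreated cells.

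Siglec1 (Entrez 20612, chromosome 2, 131067801 to 131086778), for the sialic acid binding receptor sialoadhesin, had 1457 and 1425 CPM in Cop1 KO, 385 and 371 CPM with LPS and 415 and 419 CPM in untreated cells. Its Cop1 KO libraries were 3.46 times the untreated mean, and its LPS libraries were slightly below the untreated ones on this scale. Under TMM the LPS log2 change was 0.42 (SE 0.03), so the sign of the small LPS difference turns with the scaling. Csf3r, the receptor for granulocyte colony-stimulating factor, had 222 and 217 CPM in Cop1 KO, 77.01 and 76.6 CPM with LPS and 94.7 and 96.4 CPM in untreated cells, and under TMM its LPS change was 0.25 (SE 0.04), again of the opposite sign. Ly6g, S100a9, Mpo, Elane, Ngp and Retnlg, which define neutrophils, were at 0 in all 6 libraries.

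Clec4d, a C-type lectin receptor that signals through the Fc receptor gamma chain, had 1001 and 1030.3 CPM in Cop1 KO, 490.4 and 497 CPM with LPS and 458 and 447 CPM in untreated cells. Fcgr2b, the inhibitory Fc gamma receptor, had 883 and 887 CPM in Cop1 KO, 562 and 559 CPM with LPS and 422 and 439 CPM in untreated cells. Cd72, a C-type lectin with inhibitory motifs, had 741 and 722 CPM in Cop1 KO, 420.0 and 417 CPM with LPS and 345 and 351 CPM in untreated cells. In each of the 3 genes the LPS libraries lay between the Cop1 KO and the untreated libraries. Exons of Cd72 overlap those of Tesk1 on the opposite strand over 41.6% of their bases.

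Pirb, an inhibitory immunoglobulin-like receptor, lay nearest the upper limit of the LPS band, with 238 and 239.9 CPM in Cop1 KO, 191 and 193 CPM with LPS and 124 and 121 CPM in untreated cells. Trem1, a receptor that amplifies inflammatory signals, had 5.39 and 4.97 CPM in Cop1 KO, 2.12 and 1.99 CPM with LPS and 1.37 and 1.20 CPM in untreated cells. For Pirb the TMM log2 change was 1.16 (SE 0.04) in Cop1 KO and 1.21 (SE 0.04) with LPS, and Cop1 KO over LPS was -0.06 (SE 0.04), so its Cop1 KO level did not exceed its LPS level under that scaling. For Siglec1 the same ratio was 1.56 (SE 0.03). It was low for several other members under TMM, with 0.07 (SE 0.04) for Xylt2, 0.04 (SE 0.05) for Ifitm2 and 0.06 (SE 0.13) for BC051226. For Fbn1 it was 0.26 (SE 0.13) and for Igfbp7 0.22 (SE 0.15).

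A list of 35 Fc and inhibitory myeloid receptors holds 5 of the members (Fcgr2b, Pirb, Siglec1, Clec4d and Trem1). Of 28 further receptors tested, edgeR called 21 higher and 2 lower in Cop1 KO (median log2 change 0.53). With LPS, 13 were called higher and 14 lower (median 0.05). The medians of all genes were -0.01 and -0.18. Of the 18 microglia and macrophage markers, 16 were called higher and 0 lower in Cop1 KO (median 0.48), and 6 higher and 10 lower with LPS (median -0.28). The rise in Cop1 KO is therefore not particular to the receptor list. The activating Fc gamma receptors Fcgr1 and Fcgr4 rose in Cop1 KO by 1.36 (SE 0.03, adjusted p = 3.66e-37) and 1.13 (SE 0.04, adjusted p = 2.18e-29), and with LPS by 3.29 and 3.31. Fcgr3, a further activating receptor, rose in Cop1 KO by 0.54 (SE 0.03) and fell with LPS, with a log2 change of -0.62 (SE 0.03). Of 15 tested genes associated with C/EBP beta in myeloid cells, other than Csf3r, 11 were called higher and 2 lower in Cop1 KO. With LPS, 10 were called higher and 5 lower. Of all genes, 28.1% were called higher and 30.3% lower in Cop1 KO, and 30.2% and 43.4% with LPS. The LPS co-receptor Cd14 rose by 0.97 (SE 0.03) in Cop1 KO and by 1.87 (SE 0.03) with LPS.

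Ifitm1 and Ifitm2 encode interferon-induced membrane proteins that restrict virus entry. Ifitm1 had 3.94 and 3.95 CPM in Cop1 KO, 2.70 and 1.41 CPM with LPS and 0.851 and 1.06 CPM in untreated cells. Ifitm2 had 105 and 101 CPM in Cop1 KO, 79.6 and 74.7 CPM with LPS and 50.9 and 56.7 CPM in untreated cells. Both were higher with LPS than in untreated cells in both libraries, within the band on library-size scaling and above it under TMM, with L of 0.98 and 1.07. The counts of Ifitm2 nearly match those of an identifier without a name, and 40.9% of its exonic bases overlap a same-strand entry, so its reads are uncertain. Their relative Ifitm3, no member, had TMM log2 changes of 1.89 (SE 0.03) in Cop1 KO and 2.77 (SE 0.03) with LPS. Of 41 interferon-stimulated genes on a list that does not hold these 2, 40 were called higher and 1 lower in each comparison, with median changes of 1.77 in Cop1 KO and 4.22 with LPS.

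Of 6 further members, 5 are enzymes and 1 is the cell-surface proteoglycan syndecan-3. Sdc3, for syndecan-3, had 1141 and 1141 CPM in Cop1 KO, 805 and 798 CPM with LPS and 605 and 606 CPM in untreated cells. Xylt2, the xylosyltransferase that starts glycosaminoglycan chains, had 269 and 255 CPM in Cop1 KO, 198 and 188 CPM with LPS and 129 and 127 CPM in untreated cells. Chst1, a keratan sulfate sulfotransferase, had 7.79 and 7.77 CPM in Cop1 KO, 2.79 and 3.84 CPM with LPS and 2.55 and 2.48 CPM in untreated cells. All 3 stood above untreated cells with LPS in both libraries, and all 3 leave the band under TMM.

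Xdh, the purine enzyme xanthine dehydrogenase, lay close to 0 with LPS on library-size scaling, with 311 and 314 CPM in Cop1 KO, 146 and 145 CPM with LPS and 146 and 155 CPM in untreated cells. Lpcat2, an acyltransferase that makes platelet-activating factor, had 155 and 159 CPM in Cop1 KO, 97.4 and 103 CPM with LPS and 80.8 and 79.1 CPM in untreated cells. Dpep2, a dipeptidase that acts on leukotriene D4, had 244 and 255 CPM in Cop1 KO, 94.9 and 94.9 CPM with LPS and 141 and 136 CPM in untreated cells. Under TMM the LPS log2 changes of these genes were 0.52 (SE 0.04), 0.89 (SE 0.04) and 0.02 (SE 0.04), so Dpep2 was the nearest to 0 of the 3 on that scale and Xdh on the other. Other annotated entries overlap 44.0% of the exonic bases of Dpep2.

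Further protein members had no shared role. Npy, the neuropeptide Y precursor, had 52.3 and 54.5 CPM in Cop1 KO, 13.01 and 11.7 CPM with LPS and 18.3 and 19.3 CPM in untreated cells, a fold of 2.84 for Cop1 KO. Neuron markers were lower in Cop1 KO, as given above. Arrb2, the receptor adaptor beta-arrestin 2, had 496 and 499 CPM in Cop1 KO, 194 and 184 CPM with LPS and 278 and 285 CPM in untreated cells. S100a6, a calcium-binding protein, had 97.3 and 93.5 CPM in Cop1 KO, 32.9 and 31.9 CPM with LPS and 53.5 and 50.7 CPM in untreated cells. Both LPS libraries lay below both untreated ones in these 3 genes, and under TMM the LPS log2 changes were -0.04 (SE 0.09) for Npy, -0.01 (SE 0.03) for Arrb2 and -0.12 (SE 0.06) for S100a6.

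Sowahc, an ankyrin repeat protein, had 167 and 174 CPM in Cop1 KO, 58.6 and 55.8 CPM with LPS and 90.3 and 84.2 CPM in untreated cells. Neurl3, a ubiquitin ligase, had 166 and 169 CPM in Cop1 KO, 84.6 and 87.5 CPM with LPS and 88.8 and 86.6 CPM in untreated cells. Prrt1, a protein associated with AMPA receptors in neurons, had 3.66 and 3.95 CPM in Cop1 KO, 1.53 and 1.85 CPM with LPS and 1.84 and 1.24 CPM in untreated cells. For Neurl3 and Prrt1 the LPS and untreated libraries overlapped on library-size scaling. Under TMM the LPS log2 changes were 0.54 (SE 0.04) for Neurl3, 0.70 (SE 0.28) for Prrt1 and -0.04 (SE 0.05) for Sowahc.

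The remaining 7 members are non-coding or pseudogene models, and several share reads with neighbours. LOC100862431 had 1105 and 1009 CPM in Cop1 KO, 820 and 708 CPM with LPS and 575 and 555 CPM in untreated cells, and its counts nearly match those of an identifier without a name, so it is uncertain which model the reads belong to. Hmga2-ps1, a pseudogene within the span of Sdccag8, had 46.4 and 45.0 CPM in Cop1 KO, 16.3 and 13.4 CPM with LPS and 17.96 and 22.2 CPM in untreated cells. Trp53cor1, the non-coding RNA also called lincRNA-p21, had 7.36 and 8.60 CPM in Cop1 KO, 3.42 and 3.01 CPM with LPS and 2.74 and 3.37 CPM in untreated cells, and opposite-strand entries overlap 44.1% of its exonic bases. Mir7115 lies wholly within an exon of Arrb2 on the same strand, at chromosome 11, 70438255 to 70438318, so its reads cannot be told apart from those of Arrb2, and the pair do not count as separate evidence. Gm34620 averaged L of 0.96 in Cop1 KO and -0.16 with LPS and overlaps the span of Dcakd, BC051226 had L of 0.93 and 0.55, and F730311O21Rik had L of 0.84 and -0.59.

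The limits of the rule divide genes of nearly equal values. Just inside the Cop1 KO limit of 0.8 lay Arrb2 (0.82), Igfbp7 (0.84) and F730311O21Rik (0.84), and just outside lay Pcolce (0.79), Unc93b1 (0.77) and Slc15a2 (0.77). At the upper LPS limit, Pirb (0.65), Ifitm1 (0.64) and Xylt2 (0.59) lay inside and Ifi27l2a (0.83), Orai2 (0.93) and Lst1 (0.95) outside. At the lower LPS limit, S100a6 (-0.67), Sowahc (-0.60) and F730311O21Rik (-0.59) lay inside and Sez6l2 (-0.74), Itga8 (-0.77) and Sap25 (-0.79) outside. At the level limit, Actg2 (3.16 CPM) and F730311O21Rik (3.32 CPM) were kept, while Grem1 and Sh2d6 averaged 2.999 and 2.88 CPM.

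The rule was also applied without each library in turn, and the same measure was then read in the library left out. Genes chosen without the first Cop1 KO library numbered 47, and 43 of these had L of at least 0.8 in it; without the second, 56 were chosen and 45 had it there. Without the first LPS library 48 were chosen and 46 lay within the band in that library, and without the second 47 were chosen and 46 did. These counts use the same untreated libraries as the choice. On group means, 2.22% of all 12476 genes had L of at least 0.8 in Cop1 KO and 39.7% lay within the LPS band. The 2 libraries of a group may be technical repeats, so these counts do not show replication in separate cultures. Against an untreated library that the choice did not use, 42 of 52 and 39 of 46 genes had L of at least 0.8.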

How the data were processed

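Per the labels' protocols, column-purified, DNase-treated RNA went into unstranded TruSeq libraries, sequenced single-end on a HiSeq. Reads were aligned with GSNAP to GRCm38, per the submitters' processing notes; the counting annotation is not given in the sources used here. Per the file headers, the deposited count values are uniquely aligned reads per gene model, and the RPKM values deposited by the authors are scaled by a size factor per sample.

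Names came from RefSeq for 31049 identifiers and from GENCODE for 78, and 5401 had none (1.07% to 1.30% of counts). Libraries held 21321184 and 21750443 counts (Cop1 KO), 22217032 and 20568144 (LPS) and 21158430 and 22553708 (untreated). Counts of the 2 libraries of each group differed beyond sampling noise, with a chi-square statistic over its degrees of freedom of 1.95 (Cop1 KO), 2.47 (LPS) and 1.58 (untreated).

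Counts entered 1 edgeR 4.0.16 quasi-likelihood fit in R 4.3.3 over all 6 libraries and 15585 genes kept by filterByExpr, with TMM factors, 3 residual degrees of freedom and Benjamini-Hochberg adjustment at 0.05. "Called" in the text means past that threshold; log2 changes with an SE come from this fit, and L and CPM from library totals. The procedure was tested on simulated data. Alternatives were DESeq2 1.42.0, other scalings, pseudocounts, filters and limits, and leaving out each library.

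The members, the gene lists and the rule for named genes were chosen with earlier results of these data known; roles were assigned after the members were seen. Named genes are the listed members, the 20 with the largest L in Cop1 KO, the 12 most abundant in Cop1 KO, those with L nearest 0 with LPS, those at the limits, and up to 4 genes of each list by smallest p. Some genes the rule picks are not reported here, though they stay in all counts and medians. Members outside that rule were named after their values were seen, as were the further list genes Ifitm3, Fcgr3, Thy1 and Dcn. Of the members, 44 matched GENCODE exons, 15 overlap another entry, 7 of them by above 20% of exonic length.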

Additional observations from a re-analysis of the deposited data

How the results depend on the processing

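The number of genes the rule finds depends on scaling and limits: 47 as reported, 78 with TMM, 108 with median-of-ratios factors, 90 with the authors' normalised RPKM, 25 with a minimum of 10 CPM and 26 with a Cop1 KO limit of 1. Of the 47, 33, 31 and 18 were chosen again under TMM, median-of-ratios and RPKM. In the RPKM setting the minimum level of 3 and the pseudocount of 1 were in RPKM units, which depend on gene length. Its counts and medians therefore do not show the effect of scaling alone. There, 35 of the 47 members kept L of at least 0.8 in Cop1 KO, and 7 of the 19 matrix members were chosen again. The members' median L in Cop1 KO was 1.04 as reported, 1.19 with TMM, 1.26 with median-of-ratios, 1.21 with RPKM, and 1.08 and 0.95 with pseudocounts of 0.5 and 2. Their median L with LPS was -0.14 as reported and turned positive with TMM (0.26), median-of-ratios (0.37) and RPKM (0.28). Leaving out 1 library gave 46 to 56 genes, medians of 0.99 to 1.07 in Cop1 KO and -0.16 to -0.055 with LPS; the last was -0.055 without the second LPS library and -0.083 without the first untreated one. Of 1034 single member values, 633 stayed within 1 SD, taken between the 2 libraries of the group, and all 517 of Cop1 KO stayed above 0. Many of the 633 were fixed in advance. Leaving out a Cop1 KO library cannot change an LPS value, nor the reverse. A value whose own library was left out is compared with an SD from that same library. Members were chosen with L of at least 0.8, so staying above 0 is no test. Total calls between groups stayed within 1.5 times of those reported and the Cop1 call held under every alternative run; Cop1 KO over untreated gave 9101 calls, and 7054 with DESeq2. Calls by direction moved more: with library totals alone, Cop1 KO gave 2321 higher and 7195 lower (4374 and 4727 as reported) and LPS 2679 and 10766 (4714 and 6767 as reported), and DESeq2 gave 3037 lower in Cop1 KO. No paired analysis was possible because the labels give no replicate numbers. With 2 libraries a group, members at a few CPM are limited by depth.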
